A study of Mus musculus with 6 samples.

Results

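A set of 10 transcription factors that hold CD8 T cells in a naive or stem-like state was followed through the single-cell data: Tcf7, Lef1, Bach2, Id3, Satb1, Myb, Foxo1, Foxp1, Bcl6 and Klf3. They were listed by name, with earlier results of these data known, and are 10 of the 32285 genes in the count tables, where each name matched 1 gene. The study asked what becomes of CD8 T cells in a tumor when they cannot receive the cytokine IFNγ. C57Bl6 mice carried B16-OVA tumors, a mouse melanoma line expressing ovalbumin, and tumors and draining lymph nodes (LNs) were taken at day 12. Control mice were CD8-Cre Rosa26Tomato. CD8-IFNγRKO mice were CD8-Cre Rosa26Tomato and IFNgR1flox/flox in addition, so that all mice carried the Cre, which acts in mature CD8 T cells, and the Tomato reporter that marks the cells in which it acted. CD45+ CD3+ CD8+ Tomato+ cells were sorted, 3 mice were pooled for each tissue and genotype, and each pool gave 1 library with a 5′ kit (4 libraries), of which both tumor libraries also had their T cell receptors (TCR) sequenced. No tag ties a cell to a mouse, the age of the animals is not given in the labels, and with 1 library per group no test between groups was possible. All differences below are therefore differences between libraries, and all intervals are exact 95% intervals that cover counting error only.

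Naive CD8 T cells circulate between blood and lymph nodes and keep their genome in a closed, quiescent state. When antigen is met, most cells divide and become effector or exhausted cells, while a minority keeps the factor TCF1, encoded by Tcf7, and with it the capacity to renew itself and to produce further effector cells. In tumors, such TCF1+ cells that also carry PD-1 (Pdcd1) are known as stem-like or precursor exhausted T cells. Tcf7 and Lef1 encode related DNA-binding factors that act in the Wnt pathway. Bach2, Bcl6 and Id3 encode repressors: BACH2 and BCL6 hold back effector genes at the DNA, and ID3 binds E proteins and keeps them from DNA. Satb1 encodes an organizer of chromatin that limits PD-1 expression. Foxo1, Foxp1 and Klf3 are tied to quiescence and recirculation, FOXO1 as an activator of Tcf7, Klf2 and Il7r. Myb encodes a factor of progenitor cells that also serves the self-renewal of stem-like T cells.

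Cells with UMIs (unique molecular identifiers, 1 per captured RNA molecule) of Cd2, Cd8a and Cd8b1 were kept, 6641 in the control LN, 6731 in the CD8-IFNγRKO LN, 7103 in the control tumor and 8636 in the CD8-IFNγRKO tumor. Median UMIs per cell were 4051 in the control and 3863 in the CD8-IFNγRKO LN, but 6308 in the control and 9402.5 in the CD8-IFNγRKO tumor, so that a share of cells with a UMI is given after each cell was thinned to 1600 UMIs. Levels are given as CPM, the UMIs of a gene per 1000000 UMIs, pooled over the cells of a library. The 6 CD8 T cell markers were detected in all 4 libraries, at a summed level of 5187 to 8489 CPM. Cd2, Cd8a and Cd8b1 are among them and were required of each kept cell, so their detection is no check of cell type. Markers of other cells were low: 6 B cell genes summed to 18.4 and 22.5 CPM in the LNs, mostly Cd79b, and to 0.454 and 2.17 CPM in the tumors, 6 dendritic cell genes to 84.7 CPM in the control and 33.7 CPM in the CD8-IFNγRKO tumor, 7 macrophage genes to 19.1 and 12.9 CPM, and 4 melanoma genes to 3.24 and 2.30 CPM. Ifngr1 was at 718 CPM in the control and 237 CPM in the CD8-IFNγRKO tumor, and at 182 and 137 CPM in the LNs. A 5′ read of Ifngr1 can lie outside the deleted part of the gene, so these values check the labels only weakly. Library pairs shared 51 to 82 cell barcodes.

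Positions are those of the RefSeq annotation of GRCm38.p6, the build that the submitters' processing notes call mm10. Tcf7 is at chr11:52246527-52283383, Lef1 at chr3:131110297-131224357 and Bach2 at chr4:32238413-32586109. Id3, a short gene, is at chr4:136143822-136145392, Satb1 at chr17:51736187-51833290, Myb at chr10:21124930-21160984 and Foxo1 at chr3:52268337-52350109. Foxp1 is at chr6:98925342-99522746, Bcl6 at chr16:23965050-23988866 and Klf3 at chr5:64803521-64832901. Counts cover whole genes, and isoforms such as the short forms of Tcf7 were not resolved.

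Of the 10 factors, 8 were far lower in tumor CD8 T cells than in LN CD8 T cells, and the exceptions in control mice were Myb and Bcl6. Tcf7 was at 579 CPM in the control LN and 553 CPM in the CD8-IFNγRKO LN, against 14.1 CPM in the control tumor and 21.6 CPM in the CD8-IFNγRKO tumor. After thinning, 58.2% and 56.5% of LN cells held a Tcf7 UMI, compared with 2.73% (95% interval 2.35 to 3.16) of control and 5.38% (4.91 to 5.89) of CD8-IFNγRKO tumor cells. The 2 LNs were thus alike and both tumors far below them. Lef1 was at 399.7 and 455 CPM in the control and CD8-IFNγRKO LN and at 22.5 and 21.1 CPM in the tumors. Among the repressors, Id3 was at 71.3 and 73.1 CPM in the LNs and at 1.23 and 3.73 CPM in the tumors, and Bach2 at 74.5 and 70.1 CPM against 14.2 and 8.62 CPM. Every LN value of these genes was above every tumor value. Klf3, a repressor of the Krüppel-like family, was at 138 and 165 CPM in the LNs and at 4.59 and 8.13 CPM in the tumors. The chromatin organizer Satb1 was at 326 and 339 CPM in the LNs and at 55.1 and 44.8 CPM in the tumors. Foxp1 was at 299 and 342 CPM against 45.0 and 35.5 CPM, and Foxo1 at 208 and 209.9 CPM against 59.3 and 49.7 CPM. Both forkhead factors were low in tumors, and each was still detected in 7.05% or more of thinned tumor cells. What share of this free RNA gives was not measured. Myb was at 14.1 and 16.5 CPM in the LNs and at 13.0 and 22.3 CPM in the control and CD8-IFNγRKO tumors. In each genotype, Myb thus stayed within 1.5-fold between LN and tumor. Bcl6 was low in every library, at 9.22 and 7.04 CPM in the LNs and at 9.71 and 3.67 CPM in the tumors, the lowest of the 4 being the CD8-IFNγRKO tumor.

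**Figure D1:**
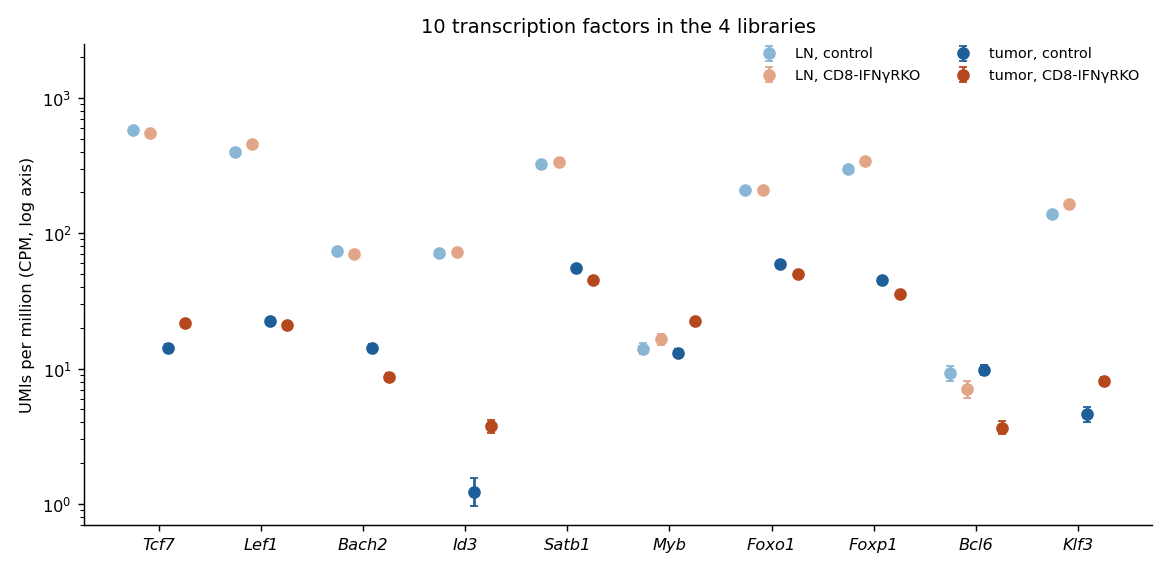
Pooled level of each of the 10 genes (CPM, log axis) in the 4 libraries, with exact 95% Poisson intervals where these are wider than the point. Tcf7 lies at 579 and 553 CPM in the LNs and at 14.1 and 21.6 CPM in the tumors, while Myb and Bcl6 lie at similar heights in LN and tumor of control mice.

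On the log2 scale, the ratio of tumor over LN in control mice was lowest for Id3, at -5.86 (95% interval -6.22 to -5.52), followed by Tcf7 at -5.36 (-5.46 to -5.26), Klf3 at -4.91 and Lef1 at -4.15. Foxp1 (-2.73), Satb1 (-2.57), Bach2 (-2.39) and Foxo1 (-1.81) formed a middle group, and Myb (-0.11, -0.29 to 0.06) and Bcl6 (0.08, -0.13 to 0.29) did not differ beyond counting error. In CD8-IFNγRKO mice, Tcf7 (-4.68), Lef1 (-4.43), Klf3 (-4.35) and Id3 (-4.29) were lowest, Bcl6 reached -0.94 and Myb 0.43. Called past 1.5-fold in either direction, with at least 100 UMIs over both groups, 8 of the 10 factors were lower and 0 higher in the control tumor, where 25.2% of the 10913 genes tested were lower and 52.3% were past the fold in either direction. In CD8-IFNγRKO mice 9 were lower and 0 higher, against 26.8% of 11287 genes lower and 56.3% in either direction. The median log2 ratio of the 10 factors was -2.65 in control and -3.14 in CD8-IFNγRKO mice, against 0.01 and 0.03 for all genes tested. In pooled counts, fewer cells that express a gene and less of its RNA in each cell cannot be told apart. Other scalings moved all tumor over LN ratios by up to 0.29, and Bcl6 in control mice then went to -0.21. Some other settings moved the Tcf7 ratio further, each time upward. In control and CD8-IFNγRKO mice it moved by 0.85 and 1.23 with every cell at equal weight, and by 0.89 and 1.17 after thinning. Without the requirement on Cd2, Cd8a and Cd8b1 it moved by 0.80 and 0.67, and in cells without Mki67 or Top2a by 0.81 and 1.52. The Bcl6 call in CD8-IFNγRKO mice was not kept when every cell had equal weight (-0.58), was thinned (-0.41) or was without Mki67 and Top2a (-0.33).

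Without IFNγ receptor, the tumor library held more Id3, Klf3, Myb and Tcf7 and less Bcl6 and Bach2 than the control tumor library, while none of the 10 factors differed by 1.5-fold between the LN libraries. Id3 was 3.04 times as high in the CD8-IFNγRKO tumor (log2 ratio 1.61, 1.24 to 1.99), from 351 UMIs against 73. Klf3 was 1.77 times as high (0.82, 0.62 to 1.03). Myb was 1.71 times (0.78, 0.66 to 0.90) and Tcf7 1.52 times as high (0.61, 0.49 to 0.73), the latter just past the fold. Bcl6 went the other way and was 2.65 times lower (-1.40, -1.60 to -1.21), and Bach2 was 1.65 times lower (-0.72, -0.86 to -0.58). Thus the 3 repressors did not move as 1 group, with Id3 above and Bach2 and Bcl6 below the control. The related factors Tcf7 and Lef1 also parted, since Lef1 was at -0.09 (-0.19 to 0.01). Foxo1 (-0.25), Satb1 (-0.30) and Foxp1 (-0.34) were somewhat lower, within 1.5-fold. Of the 10 factors, 4 were higher, where 7.94% of the 11329 genes tested were, and 2 lower, where 6.21% were. In the LNs 0 of 10 were past the fold, where 1.46% of 10080 genes were, and their log2 ratios ran from -0.39 for Bcl6 to 0.26 for Klf3. The tumor and LN comparisons share no library with each other, but each tumor library also entered the comparison with its LN above.

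**Figure D2:**
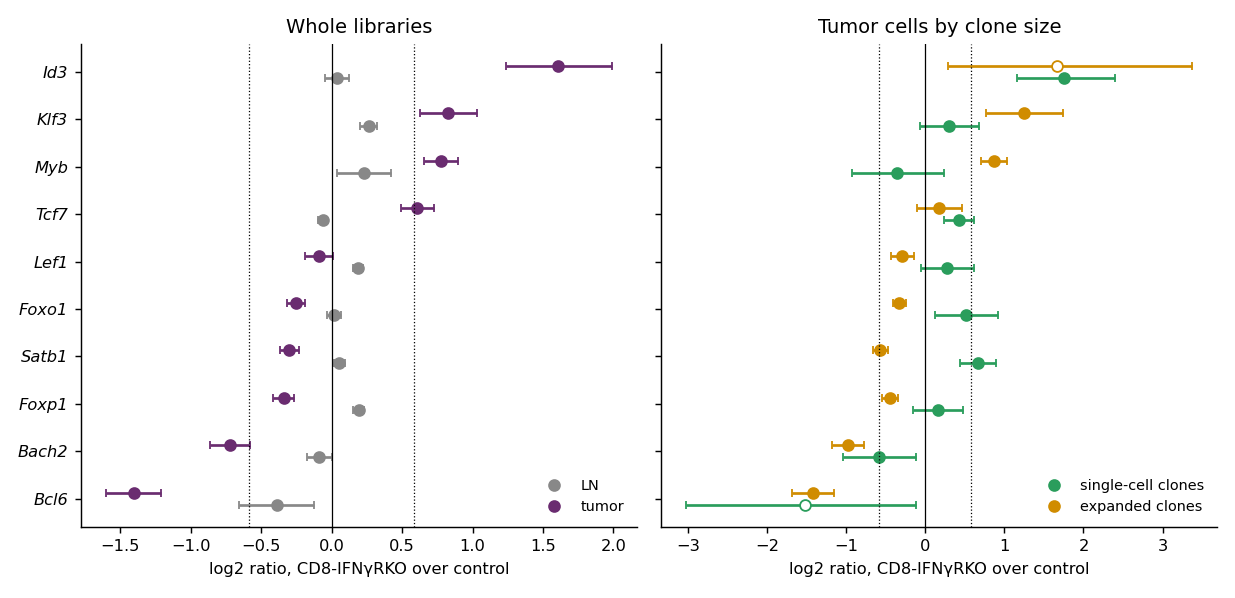
Log2 ratio of CD8-IFNγRKO over control for each gene, with exact 95% counting intervals, in whole LN and tumor libraries (left) and in tumor cells of single-cell and expanded clones (right). Dotted lines mark 1.5-fold and open points genes with fewer than 100 UMIs. Id3 is at 1.61 in tumors and 0.04 in LNs, Bcl6 at -1.40 and -0.39, and Satb1 and Foxo1 lie above 0 in single-cell and below 0 in expanded clones.

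Cycling also differed between the tumor libraries. The summed level of Mki67 and Top2a, genes of dividing cells, was 283 CPM in the control and 423 CPM in the CD8-IFNγRKO tumor, against 20.5 and 18.8 CPM in the LNs. Among tumor cells with no UMI of either gene, 4454 in the control and 3586 in the CD8-IFNγRKO tumor, the log2 ratio of Tcf7 was 1.31, that of Id3 2.23, Klf3 1.30 and Myb 0.86. In the same cells Bcl6 stayed lower at -1.05, whereas Bach2 came to -0.28, within 1.5-fold, and Lef1 to 0.38. As in every setting without Mki67 or Top2a, this filter read all UMIs of a cell and so depends on its depth. Among cells with no thinned UMI of either gene, Tcf7 was at 17.5 CPM in the control and 29.7 CPM in the CD8-IFNγRKO tumor. In that order, Id3 was at 1.51 and 5.35 CPM, Lef1 at 23.1 and 23.5 CPM and Bach2 at 15.6 and 9.69 CPM. When every cell was thinned to the same depth, Bach2 was at -0.20 and Bcl6 at -1.15. The Bach2 call therefore was not kept at equal depth, and the Tcf7 ratio was 0.46, within the fold, when no UMI of Cd2, Cd8a and Cd8b1 was required. It was also just within it, at 0.58, when centred on the median gene or with 1 CPM added. The part of cycling in the differences between the libraries was not tested.

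**Figure D3:**
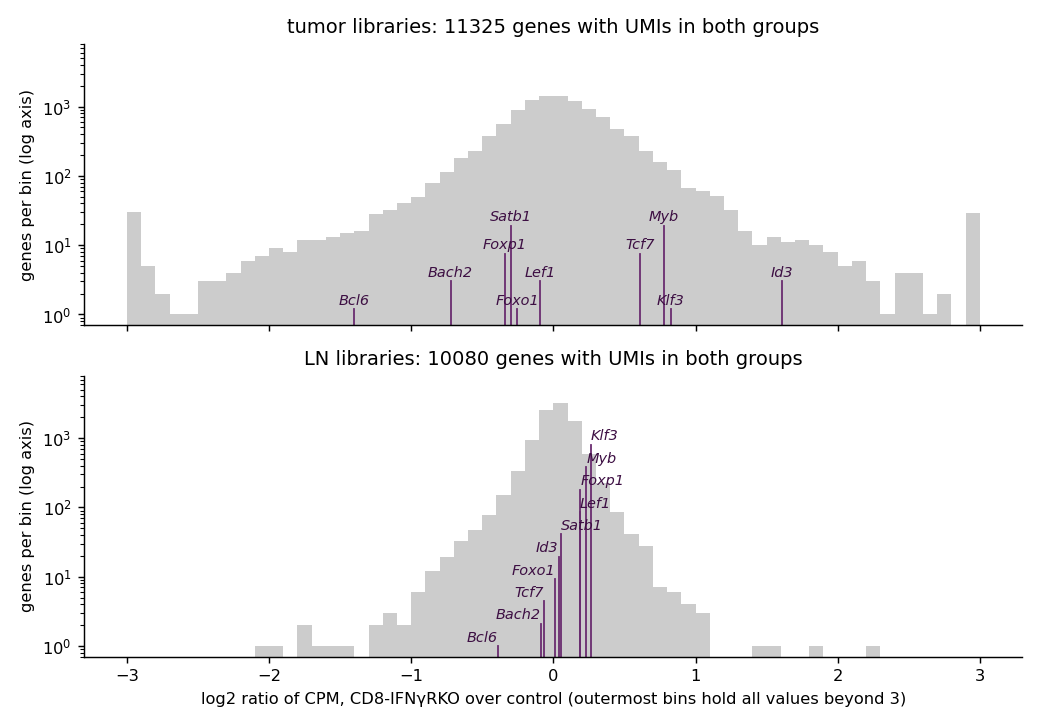
Number of genes (log axis) by log2 ratio of CD8-IFNγRKO over control, in bins of 0.1, for tumor (top, 11325 genes) and LN libraries (bottom, 10080 genes), with the 10 factors marked by lines at their ratios. In tumors the factors are spread from -1.40 to 1.61, and in LNs all lie between -0.39 and 0.26.

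Promoter windows of 4 of the genes are shown because they hold CTTTGA, the core of the DNA sequence that TCF1 and LEF1, themselves encoded by members of the set, are known to bind. The windows are the 250 bases before a transcript start in RefSeq (GRCm38.p6), 5′ to 3′ on the strand of the gene, with each CTTTGA, or TCAAAG where it lies on the opposite strand, in capitals. The Lef1 window is chr3:131156044-131156293 and the Bach2 window chr4:32417185-32417434, both on the plus strand. The Foxp1 window is chr6:99266516-99266765 and the Bcl6 window chr16:23981284-23981533, both on the minus strand.
Lef1: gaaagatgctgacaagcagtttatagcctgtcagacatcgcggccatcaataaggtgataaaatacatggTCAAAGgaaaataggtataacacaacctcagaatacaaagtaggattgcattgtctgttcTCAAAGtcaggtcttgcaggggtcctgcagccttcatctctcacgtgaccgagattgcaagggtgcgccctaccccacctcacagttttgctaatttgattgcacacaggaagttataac
Bach2: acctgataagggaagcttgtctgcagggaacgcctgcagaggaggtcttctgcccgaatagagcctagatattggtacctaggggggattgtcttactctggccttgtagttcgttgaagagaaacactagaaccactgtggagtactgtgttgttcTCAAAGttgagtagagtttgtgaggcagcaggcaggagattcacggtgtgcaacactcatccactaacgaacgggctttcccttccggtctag
Foxp1: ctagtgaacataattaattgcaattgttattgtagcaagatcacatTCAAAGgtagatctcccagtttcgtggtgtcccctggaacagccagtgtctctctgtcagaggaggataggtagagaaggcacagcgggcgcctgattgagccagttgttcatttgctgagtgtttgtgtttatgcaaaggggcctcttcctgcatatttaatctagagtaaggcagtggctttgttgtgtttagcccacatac
Bcl6: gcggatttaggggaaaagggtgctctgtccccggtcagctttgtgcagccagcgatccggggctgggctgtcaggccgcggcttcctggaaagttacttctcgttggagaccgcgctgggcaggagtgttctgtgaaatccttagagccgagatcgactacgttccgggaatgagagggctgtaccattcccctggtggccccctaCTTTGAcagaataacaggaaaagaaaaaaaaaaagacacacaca

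The core occurred 2 times in the Lef1 window, 180 and 120 bases before the start, and 1 time in each of the others, 93 bases before the start in Bach2, 204 in Foxp1 and 44 in Bcl6. Searched on both strands, it was in 4 of the 21 windows of the 10 genes, where 13.8% of all 32851 windows held it. By gene this was 4 of 10, where 15.8% of 27025 genes held it, but genes with more annotated starts have more windows. The 4 windows with the core lie inside the spans of their genes, away from the gene starts. The other windows of Lef1, Foxp1 and Bcl6 did not hold it. A match is a description of letters, and nothing in these data shows a factor bound there.

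Within tumors, the TCR sequences give each cell a clone, here cells with identical V and J segments and CDR3 nucleotides in both chains. Clones were counted over the pooled mice. In the control tumor, 4284 cells with both chains fell into 260 clones, of which 183 were of 1 cell and 22 of 20 or more cells, the latter holding 3741 cells. In the CD8-IFNγRKO tumor, 5937 cells fell into 429 clones, of which 364 were of 1 cell and 25 of 20 or more cells, holding 5359 cells.

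Tcf7, Id3 and Klf3 stood far higher in single-cell clones than in clones of 20 or more cells. Tcf7 was at 353, 15.5, 16.5 and 4.19 CPM in control clones of 1, 2 to 4, 5 to 19 and 20 or more cells, and at 473, 135, 41.8 and 4.09 CPM in CD8-IFNγRKO clones of the same sizes. In the CD8-IFNγRKO tumor Tcf7 was thus lower at each step in size, whereas in the control tumor it was already low in clones of 2 to 4 cells, a class of 67 cells and 6 Tcf7 UMIs. Id3 was at 29.6 CPM in single-cell clones and 0.142 CPM in clones of 20 or more cells of the control, and at 99.6 and 0.519 CPM in CD8-IFNγRKO. Both libraries thus had almost no Id3 in large clones. Klf3 went from 94.2 to 0.959 CPM in the control and from 116 to 2.87 CPM in CD8-IFNγRKO. Satb1 was at 229 CPM in single-cell and 48.3 CPM in the largest clones of the control, and at 363 and 33.3 CPM in those of CD8-IFNγRKO. Lef1 went from 121 to 18.5 CPM and from 146 to 15.7 CPM, Bach2 from 78.9 to 12.2 CPM and from 52.7 to 6.41 CPM, and Foxp1 from 138 to 41.9 CPM and from 155 to 30.0 CPM. In clones of 20 or more cells, a thinned UMI of Satb1 was found in 6.97% of control and 5.53% of CD8-IFNγRKO cells. These shares were 6.95% and 5.62% for Foxp1, 3.07% and 2.67% for Lef1 and 1.93% and 1.58% for Bach2. The share that free RNA gives was not measured. Foxo1 was at 83.3 and 59.0 CPM in the control and at 119 and 47.0 CPM in CD8-IFNγRKO. Myb went from 48.2 to 12.1 CPM in the control but only from 37.8 to 22.4 CPM in CD8-IFNγRKO tumors. Bcl6 rested on 12 and 8 UMIs in single-cell clones, and its intervals of 6.80 to 23.0 CPM and 1.98 to 9.02 CPM held the levels of the large clones, 8.85 and 3.34 CPM.

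**Figure D4:**
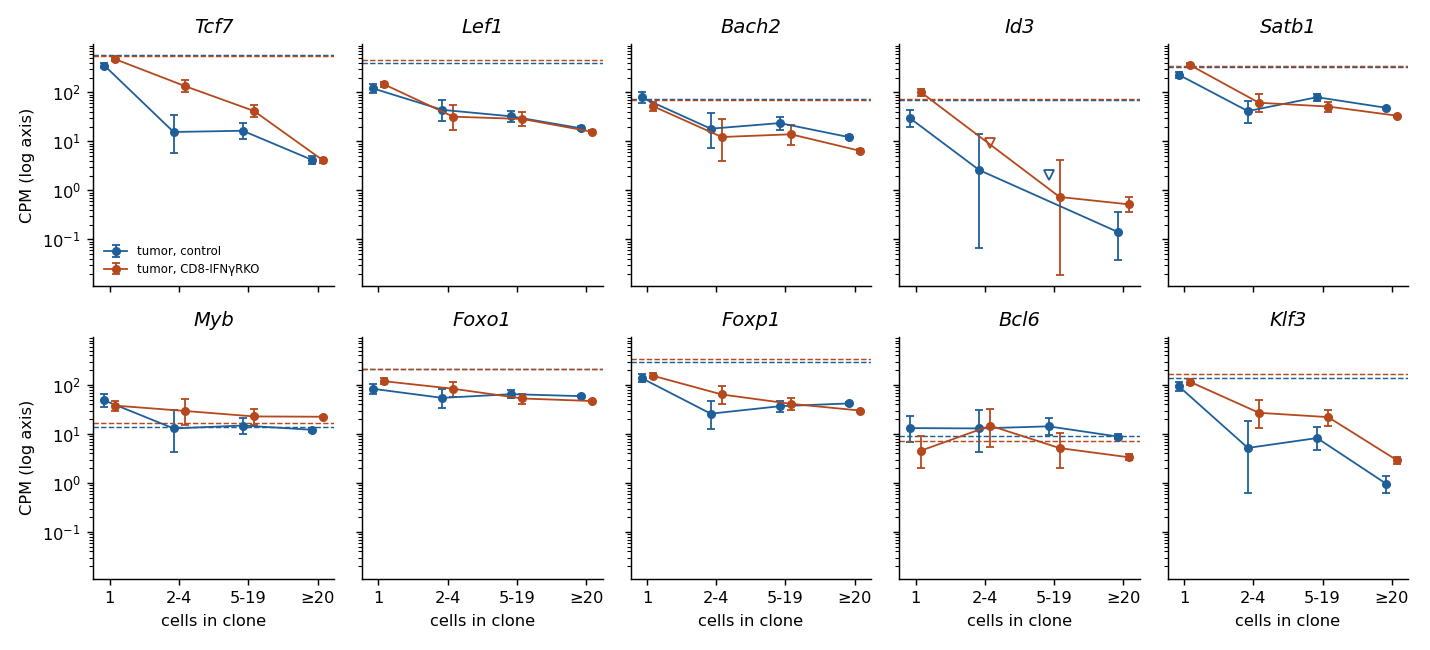
Level of each gene (CPM, log axis) by number of cells in the clone, in control and CD8-IFNγRKO tumors, with exact 95% Poisson intervals. Dashed lines are the LN levels of the same genotype and open triangles the upper limit where no UMI was found. Tcf7 starts at 353 and 473 CPM in single-cell clones and ends at 4.19 and 4.09 CPM in clones of 20 or more cells, and Bcl6 lies at similar heights at both ends.

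Expanded clones (2 or more cells) over single-cell clones gave log2 ratios of -6.12 (-6.41 to -5.84) in the control and -6.37 (-6.55 to -6.19) in the CD8-IFNγRKO tumor for Tcf7, and of -6.02 and -5.08 for Klf3. For Id3 they were -7.49 (5 UMIs against 27) and -7.58 (33 against 174). In CD8-IFNγRKO tumors, Id3 stood at the 0.0291, Tcf7 at the 0.0678 and Klf3 at the 0.165 percentile of the ratios of all genes tested. Satb1 was at -2.19 and -3.42, Lef1 at -2.61 and -3.18, Bach2 at -2.61 and -2.99, Foxp1 at -1.74 and -2.34, Myb at -1.97 and -0.75, and Foxo1 at -0.49 and -1.33. In the control tumor 7 of the 9 factors with enough UMIs were lower in expanded clones and 0 higher, where 11.7% of 9462 genes were lower and 32.6% past the fold in either direction. In the CD8-IFNγRKO tumor 9 of 10 were lower and 0 higher, where 16.3% of 10321 genes were lower and 42.5% in either direction. Expanded clones held 30357050 UMIs in the control and 63429977 in the CD8-IFNγRKO tumor, against 912503 and 1747172 in single-cell clones. The minimum of UMIs over both groups therefore admits genes of expanded clones at lower levels than genes confined to single-cell clones. The percentiles and the shares of lower genes depend on this minimum, and its part in them was not tested.

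Cells of single-cell clones differed from the rest in other ways. Their median depth was 4039 and 3997.5 UMIs, close to that of LN cells, against 6357 and 10512 UMIs in clones of 20 or more cells, and 6.11% and 6.84% of them held a thinned UMI of Mki67 or Top2a, against 16.5% and 32.3%. Pdcd1 was at 220 and 106 CPM in single-cell clones and at 876 and 646 CPM in the largest. The 6 B cell genes summed to 4.38 CPM (4 UMIs) and 17.2 CPM (30 UMIs) in single-cell clones, and to 0.320 and 1.72 CPM in clones of 20 or more cells. The dendritic cell genes summed to 31.8 and 11.4 CPM in single-cell clones. Ifngr1 was at 1115 CPM in control and 487 CPM in CD8-IFNγRKO single-cell clones, against 729 and 227 CPM in clones of 20 or more cells. The part of circulating cells, or of B cell RNA, in the levels of single-cell clones was not tested.

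Single large clones were read in the same way. Tcf7 was lower than in the pooled single-cell clones in all 22 large control clones, whose levels ran from 0 over a median of 2.54 to 130 CPM with 7 clones at 0. In all 25 large CD8-IFNγRKO clones it was lower too, from 0 over a median of 3.82 to 38.3 CPM with 1 clone at 0. The largest clones, of 1104 and 1463 cells, had 3.01 and 1.67 CPM. Id3, Klf3, Lef1, Bach2, Satb1 and Foxp1 were also below their single-cell level in 22 of 22 and 25 of 25 clones. Myb was below it in 22 of 22 and 23 of 25, Foxo1 in 19 of 22 and 25 of 25, and Bcl6 in 19 of 22 and 19 of 25. The Bcl6 counts are not read as a fall, as its single-cell levels rest on 12 and 8 UMIs. Clones of a tumor share 1 library and were set against 1 pooled level, so they are not replicates. Their UMIs went down to 108370, and the share of all genes below their single-cell level was not counted. A few cells with Tcf7 were nonetheless found in many large clones. Of clones of 20 or more cells, 12 of 22 in the control and 18 of 25 in CD8-IFNγRKO held at least 1 cell with a thinned Tcf7 UMI, as did 6 of 31 and 7 of 19 clones of 5 to 19 cells and 2 of 23 and 8 of 21 clones of 2 to 4 cells. These counts of clones depend on clone size, as a larger clone has more cells in which a UMI can be found. Per cell, the share was 3.17% (2 of 63 cells) in control and 22% (11 of 50) in CD8-IFNγRKO clones of 2 to 4 cells. It was 3.11% and 10.7% in clones of 5 to 19 cells. In clones of 20 or more it was 0.705% (0.461 to 1.03) and 1.09% (0.829 to 1.41). No cell type without Tcf7 was kept, so the share that free RNA gives was not measured. Shares as low as those in clones of 20 or more cells are not read as expression.

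Within clone size, Tcf7 was past the fold in neither single-cell nor expanded clones, unlike in the whole tumor, and Satb1 was past it in single-cell clones. Both classes are parts of the whole tumor libraries, so a call shared with the whole tumor is no separate result. In single-cell clones, Id3 was higher without the receptor, at 99.6 against 29.6 CPM (log2 ratio 1.75, 1.16 to 2.39), and so was Satb1, at 363 against 229 CPM (0.66, 0.44 to 0.90). Foxo1 (0.52, 0.13 to 0.91) and Tcf7 (0.42, 0.24 to 0.61) were higher within 1.5-fold. Lef1 (0.28), Klf3 (0.30) and Foxp1 (0.16) had intervals that held 0, as did Myb (-0.35). Bach2 was at -0.58 (-1.04 to -0.12), just inside the fold. Of the 9 factors with at least 100 UMIs, 2 were higher and 0 lower, where 3.52% of 3519 genes were higher and 7.08% past the fold in either direction. The Satb1 ratio was 0.55 when cells were thinned and 0.24 without the requirement on Cd2, Cd8a and Cd8b1, both within the fold. In expanded clones, Klf3 (3.44 against 1.45 CPM, log2 ratio 1.25, 0.77 to 1.75) and Myb (22.5 against 12.3 CPM, 0.87, 0.70 to 1.03) were higher and Bcl6 (3.45 against 9.22 CPM, -1.42, -1.68 to -1.16) and Bach2 (6.61 against 12.9 CPM, -0.97, -1.17 to -0.77) lower, so 4 of 9 were past the fold, where 8.60% of 10745 genes were higher, 6.47% lower and 15.1% either. Tcf7 was at 5.74 against 5.07 CPM there, a ratio of 0.18 (-0.10 to 0.46), and of -0.04 (-0.36 to 0.29) in clones of 20 or more cells. With every cell at equal weight, the Tcf7 ratio in expanded clones was 0.66, after thinning 0.71, and in cells without Mki67 or Top2a 1.06, all past the fold. The Bach2 ratio there was -0.25 after thinning. Satb1 (-0.57) and Foxo1 (-0.33) had the opposite sign in expanded and in single-cell clones.

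The Tcf7 difference exceeded 1.5-fold in clones of 2 to 4 and of 5 to 19 cells, on fewer than 100 UMIs each, and in cells without a clone. In clones of 2 to 4 cells Tcf7 was at 135 CPM in CD8-IFNγRKO and 15.5 CPM in the control (log2 ratio 3.12, 1.91 to 4.63), on 6 control UMIs. In clones of 5 to 19 cells Tcf7 was at 41.8 CPM in CD8-IFNγRKO and 16.5 CPM in the control (log2 ratio 1.34, 0.68 to 2.03, from 57 and 30 UMIs). The dendritic cell genes summed to 251.7 CPM in these CD8-IFNγRKO clones and to 22.0 CPM in the control ones, and their part was not tested. Cells without both chains, 2819 in the control and 2699 in the CD8-IFNγRKO tumor, had 12.9 and 29.0 CPM of Tcf7 (1.16, 0.98 to 1.35). Single-cell clones held 2.92% of the UMIs of all cells with a clone in the control and 2.68% in the CD8-IFNγRKO tumor. Of the Tcf7 UMIs in cells with a clone, 67.6% and 69.4% came from single-cell clones. For Id3 these shares were 84.4% and 84.1%, and for Klf3 66.2% and 48.2%, with 42.0% of the CD8-IFNγRKO Klf3 UMIs in clones of 20 or more cells. By contrast, single-cell clones gave 10.5% and 4.43% of the Myb and 4.11% and 3.52% of the Bcl6 UMIs, and 4.05% and 6.48% of the Foxo1 UMIs. Clones of 20 or more cells gave 81.8% of the Myb and 85.3% of the Bcl6 UMIs in the control and 92.7% and 90.7% in CD8-IFNγRKO. In the control and CD8-IFNγRKO tumor they held 90.0% and 94.6% of the UMIs of all cells with a clone. All these shares leave out cells without a clone. Bcl6 was lower without the receptor in clones of 20 or more cells (-1.40), in cells without a clone (-1.31) and, on 20 UMIs in all, in single-cell clones (-1.52, but 0.07 without the requirement on Cd2, Cd8a and Cd8b1). In clones of 2 to 4 cells its ratio was 0.19 (-1.79 to 2.24).

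Set against the LN of the same genotype, single-cell clones of the tumor came close to LN levels for some factors only. Tcf7 was at a log2 ratio of -0.71 (-0.88 to -0.55) in the control, past 1.5-fold, and at -0.23 (-0.33 to -0.12) in CD8-IFNγRKO, within it. Satb1 was within the fold in both genotypes, at -0.51 (-0.71 to -0.31) and 0.10 (-0.02 to 0.22). So were Bach2 (0.08 and -0.41) and Klf3 (-0.55 and -0.51). Id3 was below the LN in the control (-1.27, -1.87 to -0.72) and above it in CD8-IFNγRKO (0.45, 0.21 to 0.67). Lef1 (-1.73 and -1.64) and Foxp1 (-1.12 and -1.14) were lower than in the LN in both genotypes, as was Foxo1 (-1.32 and -0.82). Myb was higher, at 1.78 (1.30 to 2.23) and 1.19 (0.80 to 1.57). In the control 5 factors were lower and 1 higher, where 36.3% of 9354 genes were past the fold in either direction. In CD8-IFNγRKO 4 were lower, Bcl6 among them on 8 tumor UMIs (-0.62, -1.85 to 0.39), and 1 higher, where 31.1% of 9341 genes were past it.

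Part of the cells of single-cell clones held Pdcd1, the gene of PD-1. After thinning, 36 of 180 such cells in the control (20%) and 29 of 351 in the CD8-IFNγRKO tumor (8.26%) held a Pdcd1 UMI. In these Pdcd1+ cells Tcf7 was still at 101 CPM (25 UMIs) in the control and 230 CPM (46 UMIs) in CD8-IFNγRKO, against 2.99 and 4.65 CPM in Pdcd1+ cells of expanded clones. The log2 ratios of 5.08 (4.35 to 5.77) and 5.63 (5.12 to 6.10) exceeded 1.5-fold for Tcf7 in both tumors, in the control on fewer than 100 UMIs. Among control Pdcd1+ cells, the ratio was 0.31 for Lef1, -0.31 for Satb1 and 0.11 for Foxo1, each with an interval that held 0. In CD8-IFNγRKO it was 1.33, 1.63 and 1.27. Bach2 was at 1.73 (0.66 to 2.63) in the control and 2.58 (1.35 to 3.58) in CD8-IFNγRKO. Myb was at 2.20 (1.31 to 2.97) and 0.66 (-0.66 to 1.71), and Foxp1 at 0.70 (-0.08 to 1.39) and 1.47 (0.69 to 2.16). Past the fold in either direction were 38.3% of 8954 genes in the control and 44.5% of 9701 in CD8-IFNγRKO. Id3 in Pdcd1+ cells of single-cell clones was at 22 UMIs in CD8-IFNγRKO and 1 UMI in the control, and Klf3 at 6 and 0 UMIs, counts too small to read further. Among Pdcd1- cells of single-cell clones, control cells had Tcf7 at 446 and CD8-IFNγRKO cells at 507 CPM (log2 ratio 0.19, -0.01 to 0.38), and Id3 at 39.3 and 99.5 CPM (1.34, with a lower bound of 0.73). Satb1 was at 0.41 (0.18 to 0.65) in these Pdcd1- cells, within the fold, and Bach2 at -0.76 (-1.26 to -0.26), past it. Past the fold in either direction were 6.32% of 2925 genes.

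Cells with a thinned UMI of both Tcf7 and Pdcd1 were 45 of 6402 (0.703%, 0.513 to 0.939) in the control and 106 of 8358 (1.27%, 1.04 to 1.53) in the CD8-IFNγRKO tumor, or 25.7% and 23.6% of the cells with Tcf7. In the LNs 0.0937% and 0.0598% of cells held both, at a Pdcd1 share of 0.125% and 0.0897%. In the tumors the Pdcd1 share was 68.6% and 57.9% of all cells. With the share that free RNA gives unmeasured, the cells with both are not read as a cell type.

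Cells were next split by a thinned UMI of Mki67 or Top2a. Cycling tumor cells, with such a UMI, had less Tcf7 than cells without (log2 ratio -1.76 in the control and -2.02 in CD8-IFNγRKO). They also had less Klf3 (-1.82 and -1.47) and less Id3 (-3.04, on 67 UMIs in all, and -2.25). Myb was the only factor with a ratio above 0 in all 4 libraries, at 1.23 and 1.33 in the LNs and 0.68 and 0.11 in the control and CD8-IFNγRKO tumors, the last within counting error (-0.02 to 0.23). The LN values rest on 20 and 21 Myb UMIs in cycling cells (0.50 to 1.88 and 0.62 to 1.96). Unlike in tumors, Id3 was above 0 in the LNs, at 0.98 (0.65 to 1.29) in the control and 0.32 (-0.13 to 0.73) in CD8-IFNγRKO. Past the fold in this contrast were 27.3% and 29.7% of the genes tested in the LNs and 10.6% and 6.93% in the tumors. Within the LNs, Ccl5+ cells (6.89% and 5.81% of LN cells, Ccl5 being a chemokine gene of memory and effector cells) had less Lef1 (-0.74 and -0.65) and less Bach2 (-0.95 and -0.68) than Ccl5- cells, where 10.8% and 12.8% of genes were past the fold. Tcf7 differed less (-0.40 and -0.27), and Id3 and Klf3 by 0.07 to 0.15.

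In LN cells the other factors were found about as often with Tcf7 as without it, and in tumors most of them more often with it. Of control LN cells with a thinned Tcf7 UMI, 46.6% held one of Lef1, and of those without, 44.2%. In the control tumor, Lef1 was found in 20% (14.3 to 26.7) of cells with Tcf7 and 3.58% (3.13 to 4.07) of cells without, and in the CD8-IFNγRKO tumor in 20.9% and 3.49%. Klf3 was found in 23.4% against 0.691% in the control and 19.3% against 1.87% in CD8-IFNγRKO. Id3 was found in 10 of 175 control cells with Tcf7 and 0 of 6227 without (by the limit of 3 counts, this allows up to 0.0482% of cells with a thinned UMI), and in 41 of 450 and 40 of 7908 CD8-IFNγRKO cells. Satb1 went from 8.75% to 27.4% and from 6.94% to 36.0%, Foxp1 from 7.21% to 22.3% and from 6.25% to 21.1%, and Bach2 from 2.26% to 10.9% and from 1.78% to 9.33%. Foxo1 (9.59% to 15.4% and 8.27% to 15.8%) differed least in proportion among the abundant factors, and Bcl6 shares overlapped within their intervals in both tumors. Myb went from 1.73% to 6.29% in the control. In CD8-IFNγRKO it went from 2.78% (2.43 to 3.17) to 4.67% (2.91 to 7.05), with intervals that overlapped. At least 3 of the 10 factors were found in 48.9% and 53.2% of LN cells and in 1.62% and 3.13% of tumor cells, and none of them in 4.50% and 3.62% of LN cells and 68.4% and 69.5% of tumor cells. Cells share their library, so these shares describe 4 pools of cells.

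**Figure D5:**
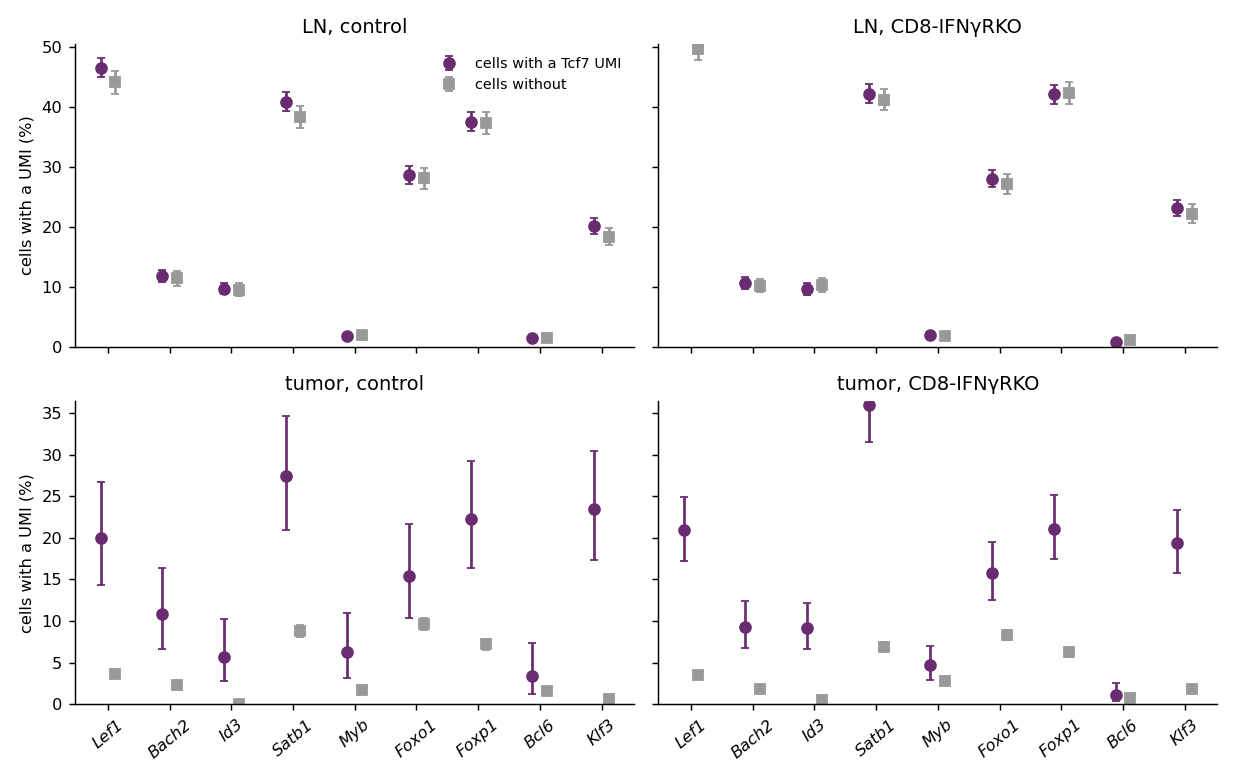
Share of cells with a thinned UMI of each other factor, among cells with (circles) and without (squares) a thinned Tcf7 UMI, in the 4 libraries, with exact 95% Clopper-Pearson intervals. In LNs the circles and squares lie close together, and in tumors Klf3 stands at 23.4% and 19.3% with Tcf7 against 0.691% and 1.87% without.

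The gene with a pattern most like Tcf7 over 8 tumor groups (4 clone sizes in each genotype) was S1pr1, the receptor by which T cells leave lymph nodes, with a Pearson r of 0.99 on log2(CPM + 1). Aff3, Cbx7, Klf3 and Slco3a1 followed, each at 0.98, of 6939 genes with at least 20 CPM in a group. Other members ranked from 149 (Foxp1) to 562 (Id3), except Bcl6, which was below 20 CPM in every group and was not ranked. The groups share libraries, and in both tumors Tcf7 was far lower in clones of 20 or more cells than in single-cell clones. These values therefore describe likeness only.

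Genes that work with these factors were read beside them. Of 12 other genes typical of naive and stem cells with enough UMIs, 10 were lower and 1 higher in the control tumor than in its LN, led by Igfbp4 (-8.87) and Dapl1 (-6.69), with Xcl1, a chemokine of stem-like cells, higher (1.10). Between the tumors 5 of the 12 were higher in CD8-IFNγRKO and 0 lower, led by Xcl1 (1.65) and Igfbp4 (1.51). In single-cell clones 5 of 11 were higher and 0 lower, led by Igfbp4 (2.16) and Xcl1 (1.70). Of 17 factors of effector and exhausted cells, 15 were higher and 0 lower in the control tumor than in its LN, led by Bhlhe40 (6.75) and Zeb2 (6.52). Between the tumors 0 were higher and 4 lower in CD8-IFNγRKO, namely Nr4a3 (-1.21), Nr4a1 (-1.07), Nr4a2 (-0.99), which are early response genes of TCR signaling, and Bhlhe40 (-0.78). Of 9 partners and targets of TCF1 and LEF1 in the Wnt pathway, 4 were lower in the control tumor than in its LN, led by Axin2 (-3.37) and Tle1 (-2.81), and between the tumors only Tle1 passed the fold, at 0.840 CPM in CD8-IFNγRKO and 1.68 CPM in the control. Of 13 related genes of the same families, Mybl2, which serves cell division, was higher in CD8-IFNγRKO (0.89) and Klf4 (-0.97), Foxo3 (-0.64) and Klf13 (-0.61) were lower. In the LNs 0 of these lists' genes passed the fold between genotypes. These lists were read by count, beside the shares of all genes given above.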

How the data were processed

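CD8 T cells of 4 scRNA-seq libraries were analysed, with the TCR contigs of both tumor libraries. The authors deposited raw counts (UMIs per gene and barcode), made with Cell Ranger, whose version 6.0.0 stands in the file headers, on mm10. Strand handling is not given in the sources used here. The members and the lists were chosen with earlier results of these data known.

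The limits of the study were applied: a cell stayed in with 200 to 6000 genes, if mitochondrial genes took no more than 3% and its top gene no more than 20% of its UMIs. The study names Cd2, Cd8a and Cd8b1 as a further filter, read here as 1 UMI or more of every 1 of them. No doublets were removed and no caller was run. UMIs were summed over cells and divided by all UMIs. With 1 library per group there was no test: a gene with at least 100 UMIs over both groups was called past 1.5-fold (0.58 on the log2 scale). Intervals were exact at 95% (Poisson for levels, Clopper-Pearson for shares, and for ratios a binomial interval given the summed UMIs), and since they cover counting error only, they hold no spread between mice. For shares, each cell was thinned to 1600 UMIs and shallower cells (41 to 701 per library) were left out. Clones were built from kept cells by the alpha and beta chain with most UMIs, and a clone of 2 or more cells was called expanded. Total UMIs per library ran from 28841136 to 93995655.

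Named were all 10 members, in each list the genes with the largest ratios in each direction, and the 5 genes most like Tcf7. There were 16 alternative settings, and the split by Pdcd1 and the comparison of single-cell clones with LN were added after seeing the data. Scripts were tested on simulated data. Python 3.11.15, numpy 2.4.6, scipy 1.17.1 and pandas 2.3.3 were used. A further split of tumor cells is not reported here.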

Additional observations from a re-analysis of the deposited data

Results flagged for a closer look

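Between genotypes, 3 members had opposite signs in tumor and LN, beyond counting error in both tissues. The log2 ratio of CD8-IFNγRKO over control for Tcf7 was 0.61 in tumors and -0.06 in LNs, for Satb1 -0.30 and 0.05, and for Foxp1 -0.34 and 0.19. Within tumors, Satb1 was at 0.66 in single-cell and -0.57 in expanded clones, and Foxo1 at 0.52 and -0.33. With 1 library per group these differences between groups were not tested, and the LN ratios are small. In tumor cells without Mki67 or Top2a the ratio was 0.12 for Satb1 and 0.07 for Foxp1, and after thinning it was 0.00 for Satb1. In these settings the opposite signs were not kept. Among tumor cells with no thinned UMI of Mki67 or Top2a, Satb1 was at 59.9 CPM in the control and 51.0 CPM in CD8-IFNγRKO. Foxp1 was at 47.4 and 39.4 CPM there, so both were lower in CD8-IFNγRKO, as in the whole tumor.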

How the results depend on the processing

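Of 108 counts of members past the fold under the alternatives, 101 stayed within 1.5 times the count given. The single log2 ratios of the members also depended on the setting, with 205 counted as moved and 875 as unchanged. Between genotypes in single-cell clones, the count of 2 became 4 with every cell at equal weight, 1 without the requirement on Cd2, Cd8a and Cd8b1, 0 after thinning, 1 at a fold of 2, and 4 with cells of exactly 1 alpha and 1 beta chain. At a fold of 2, the tumor count of 6 became 2 and that in expanded clones went from 4 to 2. A fold of 2 is stricter by construction, and for the other settings the cause was not tested. After thinning, Id3 was still at 1.10 in single-cell clones but under the minimum of 100 UMIs, and Satb1 was at 0.55. No called member changed sign. Of the ratios within the fold, that of Lef1 between the tumors turned from -0.09 to between 0.14 and 0.38 in 3 settings.

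Scaling without TCR, ribosomal, mitochondrial and heat shock genes moved the tumor over LN log2 ratios of the members by -0.29 (control) and -0.26 (CD8-IFNγRKO), and centring on the median gene by -0.20 and -0.23. Genes past the fold that were higher then made up 35.9% and 40.2% instead of 51.8% in control mice, and 39.2% and 40.8% instead of 52.5% in CD8-IFNγRKO mice. For expanded over single-cell clones these shares were 46.2% and 52.7% instead of 64.0%, and 46.6% and 44.7% instead of 61.6%. No paired analysis was possible because each group is 1 library. Depth limits Bcl6 and Id3 in clones of 2 to 19 cells, where Bcl6 rests on 5 to 26 UMIs and Id3 on 0 or 1 in each class.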
